A study of Mus musculus with 18 samples.

Results

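The genes that encode receptors for glutamate, GABA and glycine were followed in RNA-seq of whole mouse embryos, to ask how their transcripts differ between embryos labelled as lacking Dnmt3b and embryos with a Dnmt3b designed to be catalytically inactive. Members were chosen by symbol, as the subunits of the GABA-A (Gabr), glycine (Glra, Glrb), AMPA (Gria), kainate (Grik), NMDA (Grin) and delta (Grid) receptors and the metabotropic glutamate receptors (Grm). The rule found 50 genes among the 34245 in the table. All are from total RNA of single FVB embryos at E11.5, with 3 embryos of each of 3 genotypes. Dnmt3b+/+ embryos carried the unaltered gene. Dnmt3b CI/CI embryos were homozygous for a knock-in, made with CRISPR/Cas9, that replaces adjacent residues of the catalytic site, and whether any activity remains was not measured here. Embryos labelled Dnmt3b-/- were homozygous for an allele derived from mice with loxP sites in Dnmt3b. The labels do not tell founder lines of the knock-in apart. Only live embryos were collected, and their sex was not stated.

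GABA and glycine open pentameric chloride channels, whereas glutamate opens tetrameric cation channels of the AMPA, kainate or NMDA kind. Metabotropic glutamate receptors signal through G proteins instead. At mid-gestation the nervous system holds dividing progenitors and newly born neurons, and many of these receptors are expressed before synapses form. Subunit choice also changes with age: Gabra2, Gabra3 and Gabra5, Glra2, Grin2b and Grin2d are known as embryonic subunits, and Glra1, Grin2a and Grin2c as subunits of older neurons.

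Levels are in FPKM, which scale reads by exon length and library total, so they can be compared between genes. Dnmt3b itself was at 2.25, 1.62 and 2.04 FPKM in Dnmt3b+/+ embryos 1 to 3, at 2.45, 3.12 and 3.33 FPKM in embryos labelled Dnmt3b-/-, and at 2.06, 1.98 and 2.32 FPKM in Dnmt3b CI/CI embryos. Relative to Dnmt3b+/+, embryos labelled Dnmt3b-/- had no lower value, with a log2 difference of 0.57 ± 0.15 (SE), adjusted p = 0.0248 by limma with Benjamini-Hochberg adjustment. A value over the whole gene cannot show the loss of a part of it, so these embryos are named by their label. The FPKM values and annotated lengths implied library totals of 38451733 to 49808781 reads, with 20470499 to 26417130 reads on the listed genes. Per library, 11262 to 12163 genes had none.

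The samples hold neurons. All 18 pan-neuronal markers passed the filter described next, and the neuronal tubulin Tubb3 averaged 194 FPKM in Dnmt3b+/+ and 153 FPKM in the embryos labelled Dnmt3b-/-. The 18 markers summed to 374, 739 and 476 FPKM in Dnmt3b+/+, 613, 326 and 278 FPKM in embryos labelled Dnmt3b-/-, with 493, 579 and 563 FPKM in Dnmt3b CI/CI. Embryo 1 of those labelled Dnmt3b-/- stood above embryos 1 and 3 of Dnmt3b+/+, while embryos 2 and 3 of that label were below all Dnmt3b+/+ embryos. Libraries also stood apart in markers of other tissues. Dnmt3b+/+ embryo 2, with the highest pan-neuronal sum, had albumin (Alb) at 0.103 FPKM, against 85.7 and 43.7 FPKM in embryos 1 and 3 of that genotype. The heart gene Nppa was at 0.104 FPKM in Dnmt3b+/+ embryo 1 and 0.210 FPKM in Dnmt3b CI/CI embryo 3, against 3.74 FPKM or more in the other 7. The cortical gene Tbr1 had 3 reads in Dnmt3b CI/CI embryo 2, against 259 or more in the other 8. The part of these differences in the receptor values was not tested, and counts are given without each embryo where they move. In whole embryos, fewer cells of a type and less RNA per cell cannot be told apart.

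Of the 50 genes, 39 reached 0.1 FPKM in at least 3 of the 9 embryos and were tested with limma on log2(FPKM + 0.1), together with all 19397 genes that did. A gene was called where the difference was 2-fold or more and the adjusted p was under 0.05. In the embryos labelled Dnmt3b-/- against Dnmt3b+/+, 12 receptor genes were lower and 0 higher, and at an unadjusted p under 0.05 limma gave 30 lower and 0 higher, against 25.4% and 14.6% of all tested genes. Of all tested genes 3.38% were called lower and 1.07% higher. By the adjusted p alone, 25 receptor genes were lower and 0 higher, against 16.4% and 9.41% of all tested genes. The median log2 difference was -0.77 over the 39 receptor genes and -0.07 over all tested genes. All 3 embryos labelled Dnmt3b-/- lay below all 3 Dnmt3b+/+ embryos for 28 of the 39, as they did for 23.9% of all tested genes. For 7 of the 39, among them Gabra5, Gabrb1, Gabrq, Grm5 and Grm7, every embryo labelled Dnmt3b-/- was under 0.1 FPKM, so that they passed the filter through the other genotypes and their part of these counts is no independent evidence. The count of 12 was 4 without Dnmt3b+/+ embryo 2, where 3.05% of all tested genes were called lower, 5 and 7 without embryo 2 or 3 labelled Dnmt3b-/- (2.28% and 2.2%), and 18 without embryo 1 labelled Dnmt3b-/- (6.05%). It was 20 with a pseudocount of 0.01 FPKM (5.3% of all tested genes) and 0 with 1 FPKM (0.686%), which shrinks the differences of genes at these levels. All receptor calls were thus lost with 1 FPKM, and the losses given for single genes are in the other fits.

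**Figure D1:**
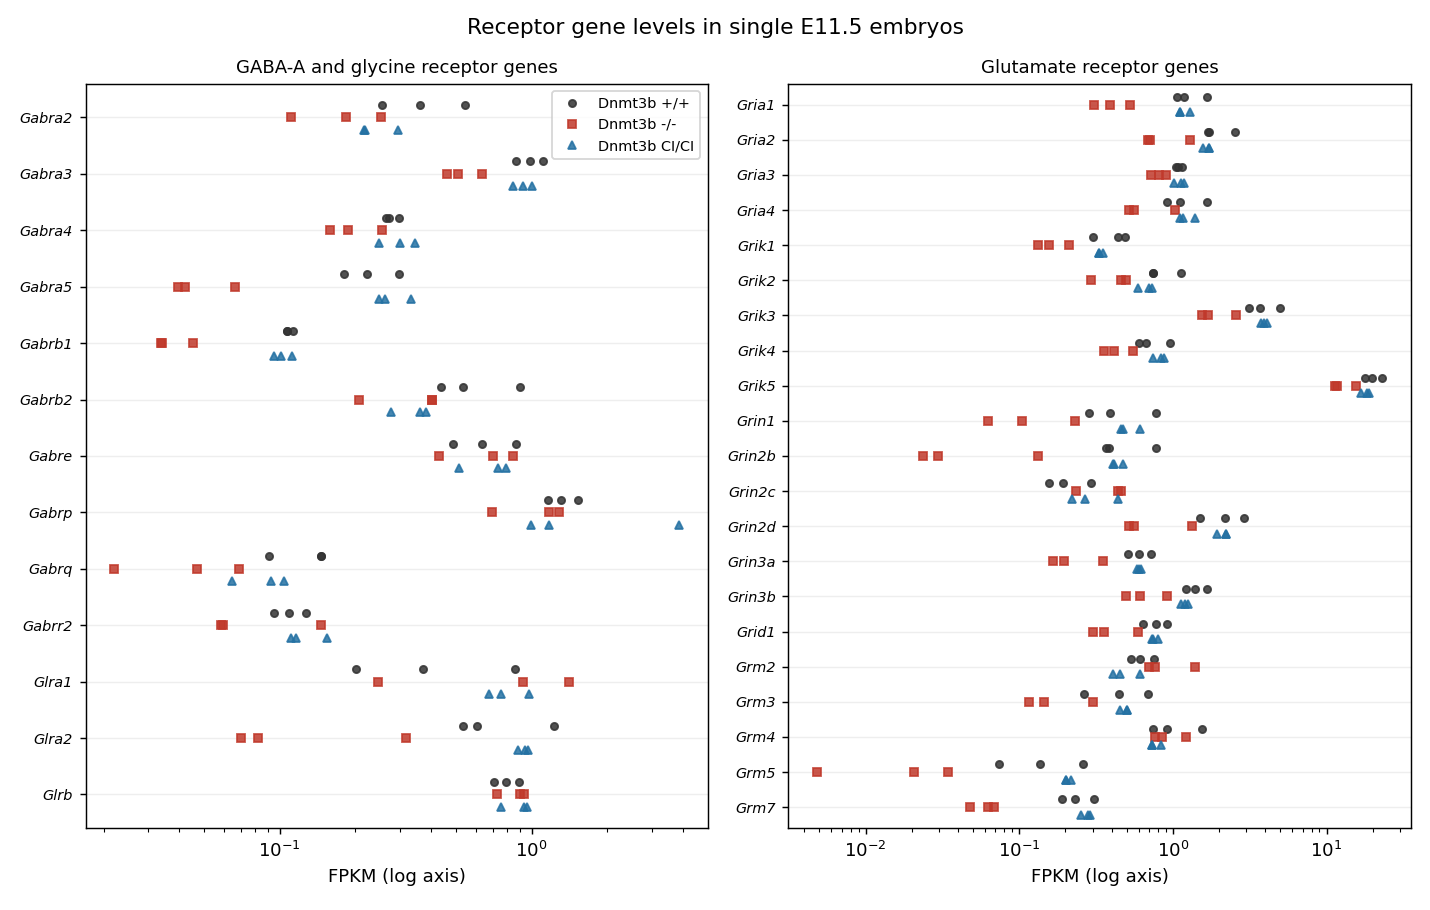
FPKM on a log axis of 34 of the 39 tested receptor genes, with 1 point per embryo (circles Dnmt3b+/+, squares labelled Dnmt3b-/-, triangles Dnmt3b CI/CI; 3 embryos each). Squares lie left of all circles for 24 of these genes, and Glra1, Glrb, Gabre, Grin2c, Grm2 and Grm4 are among those whose squares and circles overlap.

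NMDA receptor genes had the most calls. Of the 7, 6 were tested and 5 were called lower in the embryos labelled Dnmt3b-/-, against 3.38% of all tested genes. Grin2c was tested and not called. NMDA receptors pair the obligatory subunit Grin1, which binds glycine, with glutamate-binding Grin2 or glycine-binding Grin3 subunits. Grin1 was at 0.286, 0.774 and 0.392 FPKM in Dnmt3b+/+ embryos 1 to 3, 0.230, 0.0630 and 0.104 FPKM in those labelled Dnmt3b-/- and 0.473, 0.460 and 0.611 FPKM in Dnmt3b CI/CI. The 3 embryos labelled Dnmt3b-/- were below all others, and Grin1 fell by 1.31 ± 0.34 (SE) on the log2 scale, adjusted p = 0.0245. It lost the call in 8 of 18 alternative fits, among them those without Dnmt3b+/+ embryo 2 or 3, without embryo 2 or 3 labelled Dnmt3b-/-, with no filter and with these 2 genotypes alone. An antisense gene, Grin1os, overlaps 13.5% of its exon bases, and strandedness of the counting was not stated.

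Grin2b, a subunit typical of embryonic neurons, had the largest log2 difference of the 39 tested genes in this fit. Its levels were 0.366, 0.782 and 0.383 FPKM in Dnmt3b+/+, 0.132, 0.0237 and 0.0298 FPKM in embryos labelled Dnmt3b-/-, with 0.472, 0.416 and 0.409 FPKM in Dnmt3b CI/CI. Embryos 2 and 3 labelled Dnmt3b-/- were far below embryo 1, and the groups did not overlap. Grin2b fell by 1.91 ± 0.30 (SE) on the log2 scale, adjusted p = 0.00412, and the ratio of mean FPKM was 0.121. The call was lost in no fit except that with a pseudocount of 1 FPKM.

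Grin2d, the most abundant NMDA gene and like Grin2b an early subunit, was at 1.5, 2.9 and 2.19 FPKM in Dnmt3b+/+, 1.33, 0.555 and 0.519 FPKM in embryos labelled Dnmt3b-/-, with 1.94, 2.22 and 2.23 FPKM in Dnmt3b CI/CI. Embryo 1 labelled Dnmt3b-/- came close to the lowest Dnmt3b+/+ embryo without reaching it. Grin2d fell by 1.41 ± 0.33 (SE) on the log2 scale, adjusted p = 0.0170, and lost the call in 7 of 19 alternative fits, among them those without Dnmt3b+/+ embryo 2 or 3, without embryo 2 or 3 labelled Dnmt3b-/-, and with these 2 genotypes alone. An antisense gene overlaps 9.7% of its exon bases.

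The Grin3 subunits, which lower calcium flow through the channel, fell as well. Grin3a was at 0.511, 0.720 and 0.598 FPKM in Dnmt3b+/+, 0.353, 0.167 and 0.195 FPKM in embryos labelled Dnmt3b-/-, with 0.624, 0.606 and 0.587 FPKM in Dnmt3b CI/CI, and fell by 1.10 ± 0.20 (SE) on the log2 scale, adjusted p = 0.00758. Its call was lost without Dnmt3b+/+ embryo 2 or embryo 2 labelled Dnmt3b-/-, and by quantile normalization. Grin3b, at 1.39, 1.67 and 1.22 FPKM against 0.913, 0.614 and 0.494 FPKM and 1.2, 1.14 and 1.26 FPKM in the same order, fell by 1.01 ± 0.19 (SE) on the log2 scale, adjusted p = 0.00860. Tmem259 on the opposite strand covers 32.1% of the exon bases of Grin3b, so part of its reads could be those of Tmem259. The call of Grin3b was also lost by median-of-ratios scaling and quantile normalization, and without Dnmt3b+/+ embryo 2 or embryo 2 or 3 labelled Dnmt3b-/-.

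Grin2c, which is best known from the cerebellum after birth, behaved differently. It was at 0.293, 0.155 and 0.192 FPKM in Dnmt3b+/+, 0.458, 0.439 and 0.235 FPKM in embryos labelled Dnmt3b-/-, with 0.270, 0.440 and 0.222 FPKM in Dnmt3b CI/CI, with overlapping groups. The log2 difference from Dnmt3b+/+ was 0.59 ± 0.27 (SE), adjusted p = 0.141. Grin2a, the other late subunit, did not reach the filter. It held 53, 104 and 64 reads in Dnmt3b+/+, 33, 14 and 21 in embryos labelled Dnmt3b-/-, with 85, 68 and 58 in Dnmt3b CI/CI. In the fit with no filter its log2 difference from Dnmt3b+/+ was -0.54 with an adjusted p of 0.0228, under 2-fold on that scale.

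Within the Grin2 genes, Grin2b made up 13.4% to 19.8% of the summed FPKM in Dnmt3b+/+ and 2.29% to 6.73% in the embryos labelled Dnmt3b-/-. Grin2c took 3.94% to 13.2% and 23.3% to 42.4%, and Grin2d stayed the largest share in each embryo, at 53.6% or more. In Dnmt3b CI/CI, Grin2b took 13.1% to 16.9% and Grin2c 7.54% to 13.9%. These shares follow from the same values as the tests above and carry no test of their own.

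**Figure D2:**
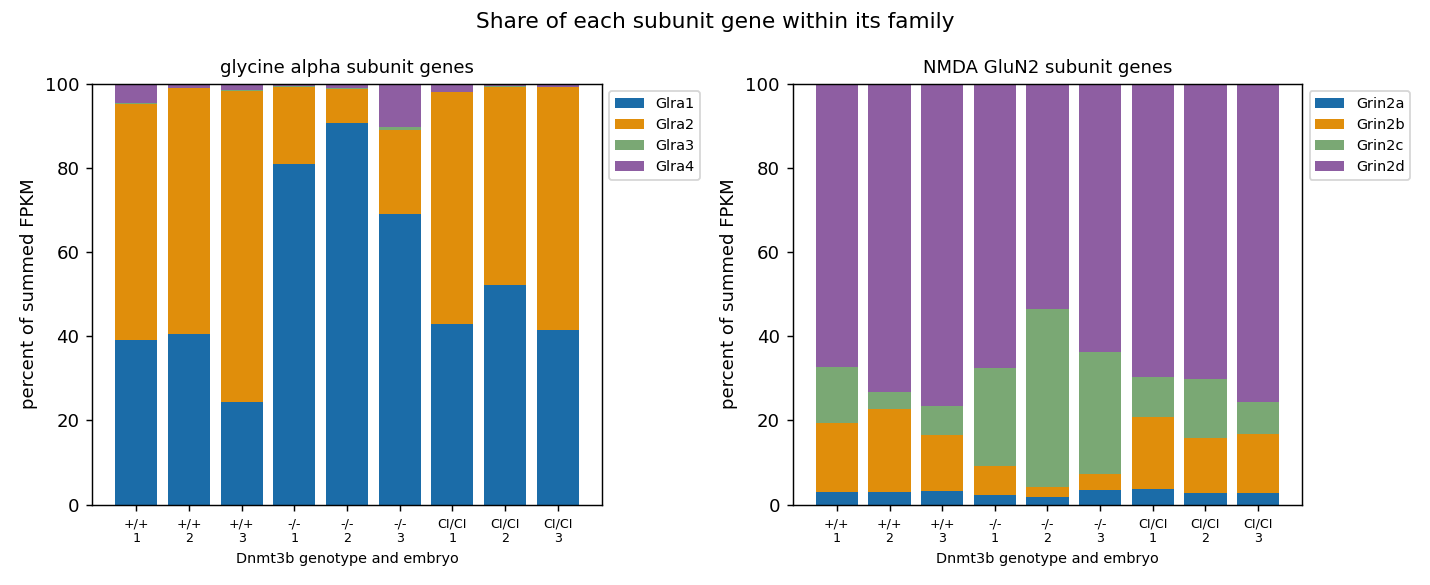
Percent of summed FPKM that each subunit gene takes within the glycine alpha genes (left) and the NMDA Grin2 genes (right), in each of the 9 embryos (genotype above the embryo number). Glra1 reaches 69.1% to 90.6% in the embryos labelled Dnmt3b-/- and 24.4% to 40.6% in Dnmt3b+/+, and Grin2b is smallest in the embryos labelled Dnmt3b-/-.

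AMPA receptors carry the fast current of glutamate synapses. All 4 of their genes were tested, and 2 were called lower, against 3.38% of all tested genes. Gria1 was at 1.07, 1.67 and 1.19 FPKM in Dnmt3b+/+, 0.527, 0.307 and 0.388 FPKM in embryos labelled Dnmt3b-/-, with 1.29, 1.1 and 1.12 FPKM in Dnmt3b CI/CI. Every embryo labelled Dnmt3b-/- had under 1 FPKM and every other embryo more, and Gria1 fell by 1.47 ± 0.20 (SE) on the log2 scale, adjusted p = 0.00224. The call was lost only with a pseudocount of 1 FPKM. Gria2, whose edited protein makes the channel impermeable to calcium, was at 1.71, 2.53 and 1.69 FPKM in Dnmt3b+/+, 1.3, 0.693 and 0.709 FPKM in embryos labelled Dnmt3b-/-, with 1.72, 1.58 and 1.72 FPKM in Dnmt3b CI/CI. The groups did not overlap, and Gria2 fell by 1.08 ± 0.23 (SE) on the log2 scale, adjusted p = 0.0129. It lost the call without Dnmt3b+/+ embryo 2, without embryo 2 or 3 labelled Dnmt3b-/-, and by quantile normalization. Gria3 passed the adjusted p alone, at a log2 difference of -0.38 ± 0.11 (SE), adjusted p = 0.0329, and Gria4 did not, at -0.74 ± 0.27 (SE), adjusted p = 0.0745.

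Gria2 and Glrb lie side by side on chromosome 3 on the minus strand, at chr3:80681450-80802835 and chr3:80843599-80913660 of GRCm38. Gria2 was called lower and Glrb, the beta subunit that anchors glycine receptors to gephyrin, was not. Since Dnmt3b methylates cytosine before guanine, the 250 bases before the annotated starts of this pair are shown, together with those of Glra2, which had the largest difference among the inhibitory receptor genes, and of Grin1. Capitals mark each CG, and all are RefSeq sequences of GRCm38.p6 on the minus strand, written 5′ to 3′.
Gria2, chr3:80802836-80803085: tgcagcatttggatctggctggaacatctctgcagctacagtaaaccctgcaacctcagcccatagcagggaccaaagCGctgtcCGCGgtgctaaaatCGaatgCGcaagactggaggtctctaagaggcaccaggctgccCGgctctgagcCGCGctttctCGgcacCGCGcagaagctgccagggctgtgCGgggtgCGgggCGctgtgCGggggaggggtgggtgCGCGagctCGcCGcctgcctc
Glrb, chr3:80913661-80913910: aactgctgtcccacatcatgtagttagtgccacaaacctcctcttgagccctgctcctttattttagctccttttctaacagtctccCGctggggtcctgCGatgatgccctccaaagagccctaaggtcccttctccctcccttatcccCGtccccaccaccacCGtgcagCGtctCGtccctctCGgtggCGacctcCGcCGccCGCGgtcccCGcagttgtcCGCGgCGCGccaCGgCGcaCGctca
Glra2, chrX:165327394-165327643: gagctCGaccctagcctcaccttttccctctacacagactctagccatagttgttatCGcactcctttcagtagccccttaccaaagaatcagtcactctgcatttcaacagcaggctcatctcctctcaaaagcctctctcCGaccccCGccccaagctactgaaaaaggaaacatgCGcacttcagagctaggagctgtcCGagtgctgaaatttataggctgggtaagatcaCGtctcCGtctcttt
Grin1, chr2:25319188-25319437: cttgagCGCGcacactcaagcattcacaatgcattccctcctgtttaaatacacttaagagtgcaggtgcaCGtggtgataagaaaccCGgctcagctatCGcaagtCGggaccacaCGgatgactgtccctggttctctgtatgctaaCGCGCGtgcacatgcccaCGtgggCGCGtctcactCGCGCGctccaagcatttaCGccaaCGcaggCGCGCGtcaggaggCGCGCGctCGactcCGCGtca

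The windows of Gria2 and Glrb held 19 and 20 CG, that of Glra2 held 8 and that of Grin1 held 27. The motif searched was CG, which reads the same on both strands. Windows were found for 34 of the 50 genes, 41 windows in all, and they held from 0 CG at Gabra3 to 42 CG at Grik3. The median was 8 CG for these windows and 6 CG over all 32851 windows of the table, and 95.1% and 92.1% of them held at least 1. Among the other genes called lower, Gabra5 and Grin2d had 9 CG, Grm7 had 8 and 9 in overlapping windows, and Grin3b had 2. Methylation was not analysed here, and CG number is given as a description of the sequence.

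Kainate receptor genes were the most abundant. Grik5, a high-affinity subunit that needs a partner to form a channel, was at 17.8, 23.1 and 19.9 FPKM in Dnmt3b+/+, 15.6, 11.4 and 11.7 FPKM in embryos labelled Dnmt3b-/-, with 16.7, 18.3 and 19 FPKM in Dnmt3b CI/CI, the highest of all 50 genes in each embryo. It passed the adjusted p and stayed under 2-fold, at a log2 difference of -0.65 ± 0.13 (SE), adjusted p = 0.0109, without overlap. Grik3, a subunit that forms channels of its own, was second in Dnmt3b+/+, at 3.7, 4.96 and 3.12 FPKM, against 2.56, 1.69 and 1.54 FPKM in embryos labelled Dnmt3b-/-, with 3.73, 3.94 and 4.1 FPKM in Dnmt3b CI/CI. Its log2 difference from Dnmt3b+/+, -0.99 ± 0.21 (SE), adjusted p = 0.0109, was just short of 2-fold, and 5 of its 19 alternative fits called it. Grik1, Grik2 and Grik4 also passed the adjusted p alone, at -0.93, -0.91 and -0.64 on the log2 scale, so all 5 kainate genes did. Of all tested genes 16.4% were lower by the adjusted p.

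Delta receptors organise synapses and do not open to glutamate in the usual way. Grid1 was at 0.639, 0.922 and 0.774 FPKM in Dnmt3b+/+, 0.597, 0.359 and 0.303 FPKM in embryos labelled Dnmt3b-/-, with 0.804, 0.747 and 0.730 FPKM in Dnmt3b CI/CI. The groups did not overlap, and it passed the adjusted p alone at a log2 difference of -0.79 ± 0.21 (SE), adjusted p = 0.0267.

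Of the 8 metabotropic receptor genes 6 were tested, and 2 were called lower, against 3.38% of all tested genes. Both were low, under 0.1 FPKM in every embryo labelled Dnmt3b-/-, and passed the filter through the other genotypes. Grm5, which couples to Gq, was at 0.0743, 0.259 and 0.137 FPKM in Dnmt3b+/+, 0.0343, 0.0207 and 0.00481 FPKM in embryos labelled Dnmt3b-/-, with 0.202, 0.216 and 0.203 FPKM in Dnmt3b CI/CI. Behind these values stand 34, 132 and 55 reads against 14, 9 and 2 reads, and 93, 96 and 80 reads. Grm5 fell by 1.04 ± 0.24 (SE) on the log2 scale, adjusted p = 0.0167, and it lost the call without Dnmt3b+/+ embryo 2, without embryo 2 or 3 labelled Dnmt3b-/-, and with these 2 genotypes alone. Grm7, which couples to Gi and sits at release sites, was at 0.190, 0.307 and 0.230 FPKM, 0.0682, 0.0480 and 0.0629 FPKM and 0.288, 0.251 and 0.278 FPKM in the same order. No embryo labelled Dnmt3b-/- came near the others, and Grm7 fell by 1.09 ± 0.15 (SE) on the log2 scale, adjusted p = 0.00240, a call lost without Dnmt3b+/+ embryo 2.

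Of the other metabotropic genes, Grm3 was at 0.265, 0.685 and 0.443 FPKM in Dnmt3b+/+, 0.304, 0.116 and 0.146 FPKM in embryos labelled Dnmt3b-/-, with 0.453, 0.500 and 0.503 FPKM in Dnmt3b CI/CI. Its first and second groups overlapped, with a log2 difference of -0.95 ± 0.31 (SE), adjusted p = 0.0501. Grm2 and Grm4, receptors coupled to Gi, were the most abundant of this kind and were not called. Grm4 was at 0.737, 1.55 and 0.911 FPKM, 1.22, 0.765 and 0.849 FPKM and 0.729, 0.838 and 0.729 FPKM in the same order, at -0.12 ± 0.25 (SE), adjusted p = 0.741 on the log2 scale against Dnmt3b+/+. Grm2 was at 0.531, 0.751 and 0.615 FPKM, 1.39, 0.764 and 0.700 FPKM and 0.405, 0.453 and 0.611 FPKM, with embryo 1 labelled Dnmt3b-/- highest. Its log2 difference from Dnmt3b+/+ was 0.47 ± 0.25 (SE), adjusted p = 0.189, and an antisense gene overlaps 9.6% of its exon bases.

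Of the 19 GABA-A receptor genes 13 were tested, with a median log2 difference of -0.64. Of these 2 were called lower, against 3.38% of all tested genes, and 7 were lower by the adjusted p, against 16.4%. Gabra5, an alpha subunit of receptors outside synapses, was at 0.181, 0.297 and 0.223 FPKM in Dnmt3b+/+, 0.0421, 0.0396 and 0.0663 FPKM in embryos labelled Dnmt3b-/-, with 0.262, 0.249 and 0.332 FPKM in Dnmt3b CI/CI. These are 24, 44 and 26 reads against 5, 5 and 8, and 35, 32 and 38. All embryos labelled Dnmt3b-/- were low, and Gabra5 fell by 1.15 ± 0.17 (SE) on the log2 scale, adjusted p = 0.00290, lost only with a pseudocount of 1 FPKM.

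Gabrp, a subunit found mainly outside the nervous system, was at 1.17, 1.52 and 1.31 FPKM in Dnmt3b+/+, 0.698, 1.29 and 1.17 FPKM in embryos labelled Dnmt3b-/-, with 3.86, 0.992 and 1.17 FPKM in Dnmt3b CI/CI. Embryo 1 of Dnmt3b CI/CI stood apart from the other 8, and no difference passed, at -0.35 ± 0.45 (SE), adjusted p = 0.599 on the log2 scale for the embryos labelled Dnmt3b-/-.

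Gabra3, the highest alpha subunit, was at 0.982, 1.11 and 0.864 FPKM in Dnmt3b+/+, 0.511, 0.462 and 0.635 FPKM in embryos labelled Dnmt3b-/-, with 1, 0.842 and 0.921 FPKM in Dnmt3b CI/CI. The groups labelled Dnmt3b-/- and Dnmt3b+/+ did not overlap, and it passed the adjusted p alone at -0.77 ± 0.14 (SE), adjusted p = 0.00672 on the log2 scale.

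Gabra2 and Gabrb2 did not pass. Gabra2 was at 0.255, 0.544 and 0.360 FPKM in Dnmt3b+/+, 0.253, 0.111 and 0.184 FPKM in embryos labelled Dnmt3b-/-, with 0.216, 0.218 and 0.296 FPKM in Dnmt3b CI/CI, with a log2 difference of -0.77 ± 0.26 (SE), adjusted p = 0.0564 for those labelled Dnmt3b-/-. Gabrb2, at 0.535, 0.903 and 0.437 FPKM, 0.402, 0.207 and 0.403 FPKM and 0.382, 0.276 and 0.360 FPKM, had a difference of -0.71 ± 0.27 (SE), adjusted p = 0.0864. Of the rest, Gabrb1 and Gabrq passed the adjusted p alone, at -0.60 and -0.64, and Gabra4, Gabre and Gabrr2 did not, at -0.34, -0.02 and -0.19.

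GABA-A genes lie in clusters, and their results are given by chromosome with no test between neighbours. On chromosome 7, Gabra5 was called lower and Gabrg3 did not reach the filter, with 22, 25 and 20 reads in Dnmt3b+/+ and 9, 13 and 11 in the embryos labelled Dnmt3b-/-. In the fit with no filter its log2 difference was -0.21 with an adjusted p of 0.00702, under 2-fold. On chromosome 11, Gabrb2 did not pass and Gabra6 had no read in any embryo. A count of 0 allows up to 3 reads, or 0.0242 to 0.0313 FPKM for Gabra6, covering counting error only. On chromosome X, Gabra3 and Gabrq passed the adjusted p alone and Gabre, a subunit that is also made outside the nervous system, did not. On chromosome 5, Gabrb1 passed, Gabra2 and Gabra4 did not, and Gabrg1 had 4, 27 and 12 reads in Dnmt3b+/+ and 5, 8 and 10 in the embryos labelled Dnmt3b-/-.

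Glycine receptor genes split. Glra2, the alpha subunit of embryonic receptors on the X chromosome (chrX:165129017-165327393), was at 0.533, 1.23 and 0.607 FPKM in Dnmt3b+/+, 0.318, 0.0821 and 0.0705 FPKM in embryos labelled Dnmt3b-/-, with 0.969, 0.880 and 0.941 FPKM in Dnmt3b CI/CI. Embryo 1 labelled Dnmt3b-/- was highest of its group and still below every other genotype, and Glra2 fell by 1.84 ± 0.38 (SE) on the log2 scale, adjusted p = 0.0106. The call was lost only with a pseudocount of 1 FPKM. Glra1, the alpha subunit that follows it in spinal cord and brain stem, was at 0.371, 0.857 and 0.201 FPKM, 1.4, 0.926 and 0.245 FPKM and 0.757, 0.976 and 0.679 FPKM. Its values were spread within each genotype and overlapped, with a log2 difference of 0.66 ± 0.56 (SE), adjusted p = 0.418. Glrb was at 0.895, 0.789 and 0.707 FPKM, 0.932, 0.899 and 0.731 FPKM and 0.962, 0.754 and 0.933 FPKM, with a difference of 0.09 ± 0.14 (SE), adjusted p = 0.671.

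Among the glycine alpha genes, Glra2 therefore made up 56.1% to 73.8% of the summed FPKM in Dnmt3b+/+, 8.04% to 19.9% in the embryos labelled Dnmt3b-/- and 47.1% to 57.6% in Dnmt3b CI/CI. Glra3 held at most 2 reads in a library and Glra4 at most 4, so no difference was detectable for them at this depth. The other genes under the filter were Gabrd, Gabrr1, Gabrr3, Grm6 and Grm8. Grm8 had 24, 57 and 21 reads in Dnmt3b+/+, 21, 12 and 10 in embryos labelled Dnmt3b-/-, with 27, 33 and 29 in Dnmt3b CI/CI, and the others at most 10 in any library.

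**Figure D3:**
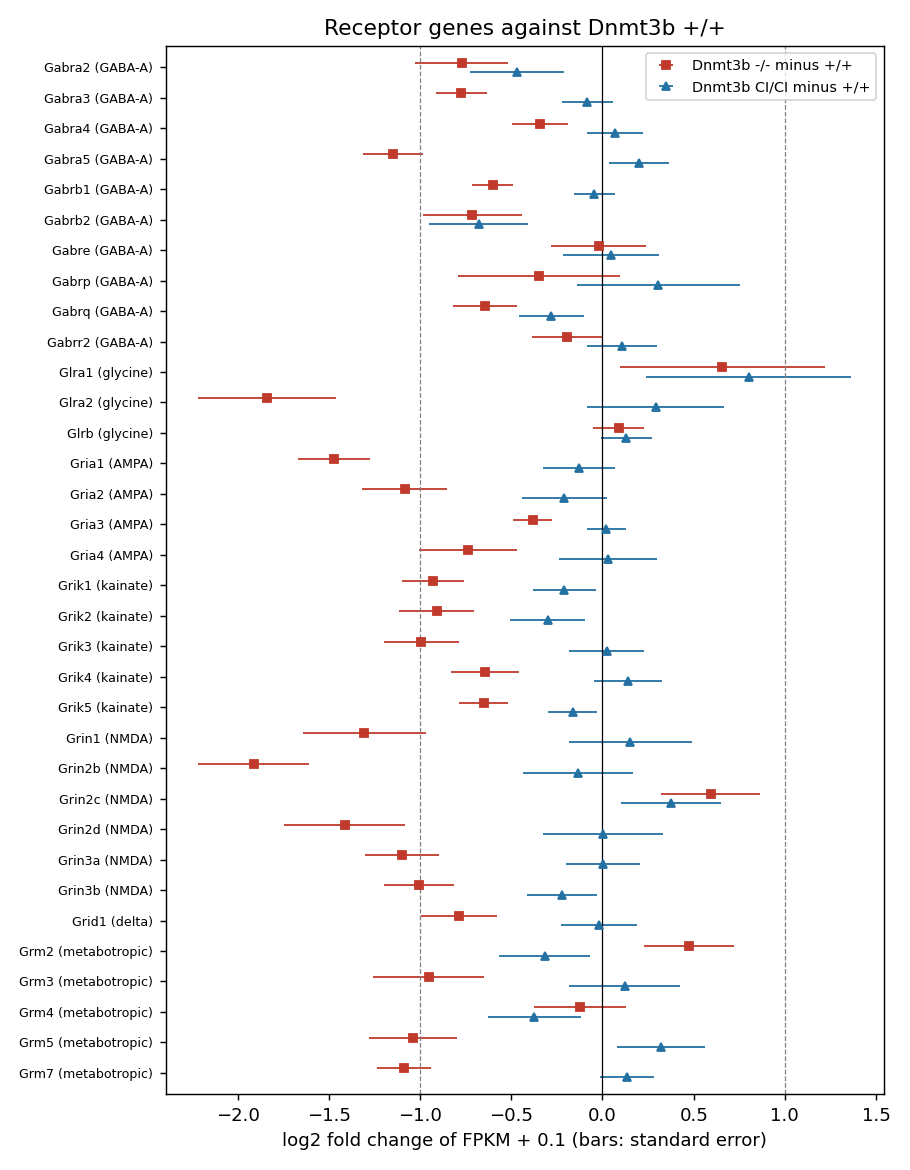
Log2 fold change of FPKM + 0.1 for 34 of the 39 tested receptor genes, with bars of 1 standard error: squares for the embryos labelled Dnmt3b-/- and triangles for Dnmt3b CI/CI, each against the same 3 Dnmt3b+/+ embryos. Dashed lines mark 2-fold; 11 squares past -1 have an adjusted p under 0.05, and no triangle passes.

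Summed by class, FPKM was lowest relative to Dnmt3b+/+ for the NMDA genes, at a ratio of mean levels of 0.419. The 7 NMDA genes summed to 4.41, 7.11 and 5.07 FPKM in Dnmt3b+/+, 3.46, 1.88 and 1.6 FPKM in embryos labelled Dnmt3b-/-, with 5.09, 5.37 and 5.41 FPKM in Dnmt3b CI/CI. Ratios were 0.504 for AMPA, 0.532 for delta, 0.590 for GABA-A and 0.605 for kainate genes, and in each of these classes every embryo labelled Dnmt3b-/- was below every Dnmt3b+/+ embryo. Metabotropic genes, at 2.03, 3.83 and 2.52 FPKM against 3.13, 1.77 and 1.83 FPKM, and glycine genes, at 1.85, 2.9 and 1.53 FPKM against 2.67, 1.92 and 1.09 FPKM, overlapped, at ratios of 0.802 and 0.904. Kainate sums are mainly Grik5, which was 75.4% to 80.0% of them in Dnmt3b+/+.

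Pan-neuronal markers moved in part with these sums, at a ratio of 0.766, with 0 of 18 called lower by limma or voom (3.38% of all tested genes by limma and 5.19% by voom), 5 lower at an unadjusted p under 0.05 (25.4%), 1 (Syt1) lower by the adjusted p (16.4%) and a median log2 difference of -0.57. Without embryo 1 labelled Dnmt3b-/-, 6 of the 18 were called lower, as were 6.05% of all tested genes. The marker sum of that embryo was inside the Dnmt3b+/+ range, and its AMPA, kainate, NMDA, delta and GABA-A sums were below that range. The marker sum rests largely on a few abundant genes, with Tubb3 at 194 of 530 FPKM on average in Dnmt3b+/+. For single markers the ratio of mean FPKM ran from 0.449 for Mapt to 1.09 for Nefm. A quotient by this sum therefore depends on the markers summed and does not measure neuron content. Per 1000 FPKM of pan-neuronal markers, the NMDA genes gave 11.8, 9.62 and 10.6 FPKM in Dnmt3b+/+, 5.65, 5.77 and 5.78 FPKM in embryos labelled Dnmt3b-/-, with 10.3, 9.27 and 9.61 FPKM in Dnmt3b CI/CI. The same quotient for AMPA genes was 12.7, 9.39 and 10.8 and 6.15, 7.3 and 8.4 FPKM, again without overlap. For GABA-A genes it was 18.9, 13.6 and 15 and 8.03, 13.6 and 17.7 FPKM, and for kainate genes 61.9, 41.4 and 52.2 and 31.6, 42.7 and 51.4 FPKM, with overlap in both. Of 6 erythroid genes, 2 were called higher (1.07% of all tested genes were), and the list summed to 1334 to 2065 FPKM in Dnmt3b+/+ and 1781 to 5702 FPKM in embryos labelled Dnmt3b-/-, with overlap. Of 6 skeletal muscle genes, 5 were called lower (background 3.38%), and the list summed to 63.5 to 100.7 FPKM and 24.1 to 54.6 FPKM, without overlap. The part of cell composition in the receptor values was not tested.

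**Figure D4:**
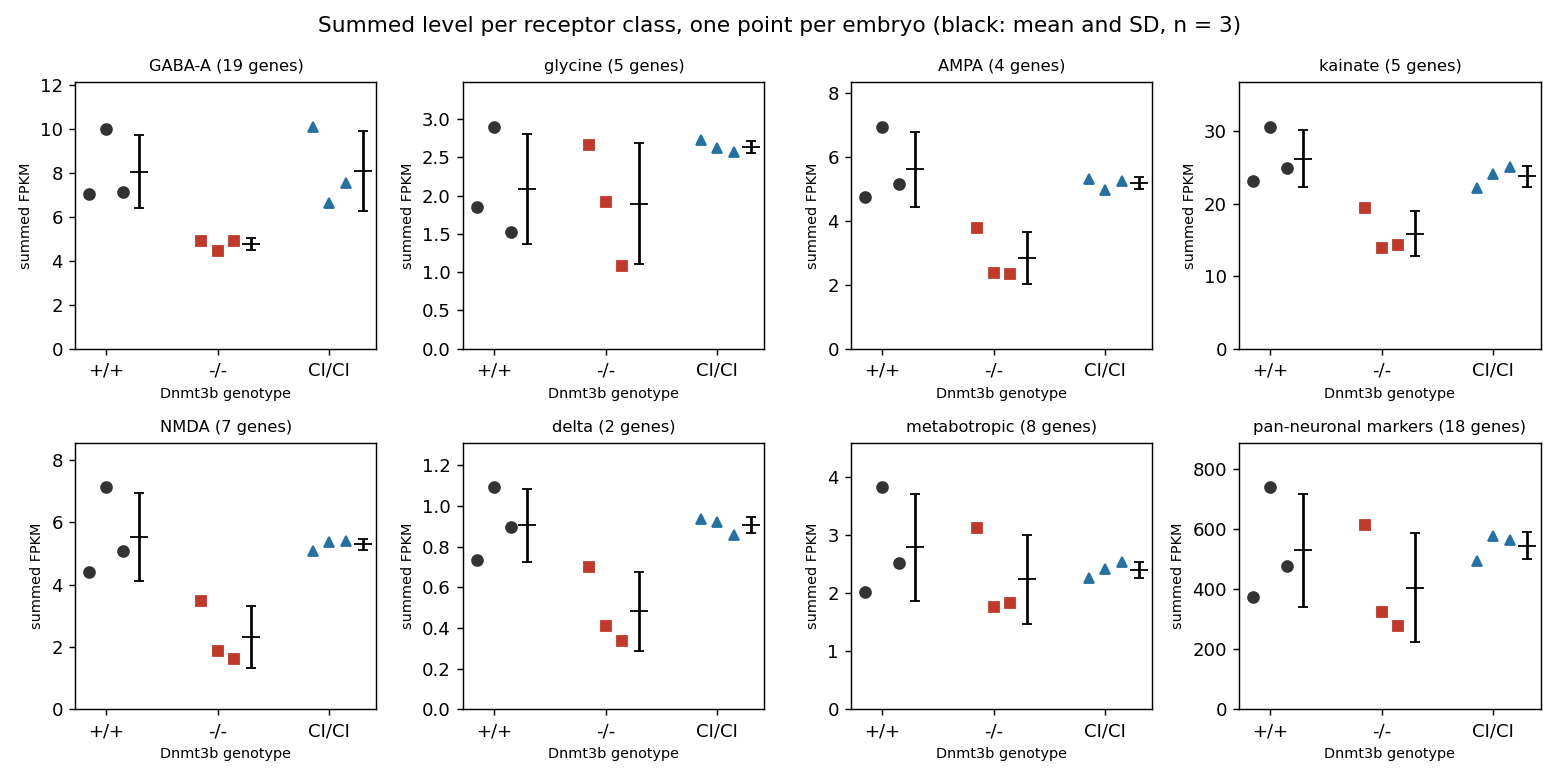
Summed FPKM per embryo for the 7 receptor classes and the 18 pan-neuronal markers, with each axis from 0 (points are embryos, black marks the mean and SD of 3). NMDA sums are 1.61 to 3.46 FPKM in embryos labelled Dnmt3b-/- and 4.41 to 7.11 FPKM in Dnmt3b+/+, while the marker sums overlap.

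In Dnmt3b CI/CI against Dnmt3b+/+, 0 receptor genes were called lower or higher by limma or voom, and 0 passed the adjusted p, with 3 lower at an unadjusted p under 0.05 (among them Gabrb2). Of all tested genes 0.0% were called lower and 0.129% higher, 0.0155% and 0.129% passed the adjusted p, and 2.55% and 2.7% had an unadjusted p under 0.05. The same Dnmt3b+/+ embryos serve in both comparisons. The smallest adjusted p of a receptor gene was 0.843, and the median log2 difference over the 39 was 0.00. Standard errors of 0.11 to 0.56 bound what could be seen: for Grin2b the difference was -0.13 ± 0.30 (SE), adjusted p = 0.975, for Glra2 0.29 ± 0.38 (SE), adjusted p = 0.957, and for Gabrb2 -0.68 ± 0.27 (SE), adjusted p = 0.924. The genes called lower in embryos labelled Dnmt3b-/- lay on both sides of Dnmt3b+/+ here. Glra2, Gabra5, Grm5 and Grm7 were higher on average in Dnmt3b CI/CI, at 0.930, 0.281, 0.207 and 0.272 FPKM against 0.790, 0.234, 0.157 and 0.242 FPKM. Grin1 was also higher, at a ratio of mean FPKM of 1.06. Gria1, Gria2, Grin2b, Grin2d, Grin3a and Grin3b were lower on average, at ratios of 0.842 to 0.994.

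The embryos labelled Dnmt3b-/- were then set against Dnmt3b CI/CI, which is also the test of whether the differences from Dnmt3b+/+ differ. Here 11 receptor genes were lower and 0 higher, against 4.32% and 1.1% of all tested genes, and 22 were lower and 1 higher by the adjusted p alone, against 18.2% and 9.7%. The median over the 39 was -0.69 and that of all tested genes -0.08. All 3 embryos labelled Dnmt3b-/- lay below all 3 Dnmt3b CI/CI embryos for 26 of the 39, as for 29.5% of all tested genes. Among the 11 are Gabra5, Grm5 and Grm7, which were under 0.1 FPKM in every embryo labelled Dnmt3b-/- and passed the filter through the other genotypes, so that their calls are again no independent evidence. Glra2 fell by 2.13 ± 0.38 (SE) on the log2 scale, adjusted p = 0.00528, Grin2b by 1.78 with an adjusted p of 0.00466, and Gabra5 by 1.35 with an adjusted p of 0.00135. Grin1, Grin2d, Grin3a, Gria1, Grm5 and Grm7 were lower by 1.10 to 1.46 on that scale. Grin1 and Grin2d lost this call without embryo 2 or 3 labelled Dnmt3b-/- or Dnmt3b CI/CI embryo 3, and Grin3a lost it without embryo 2 labelled Dnmt3b-/- and by quantile normalization. Grik3 and Grm3 were called in this comparison, at -1.02 ± 0.21 (SE), adjusted p = 0.00882 and -1.07 ± 0.31 (SE), adjusted p = 0.0317. The Grm3 call was lost in 10 of 18 alternative fits, among them those without any single Dnmt3b CI/CI embryo, without Dnmt3b+/+ embryo 3, without embryo 2 or 3 labelled Dnmt3b-/-, with no filter and by quantile normalization. That of Grik3 was lost in 6 of 19, among them those without embryo 2 or 3 labelled Dnmt3b-/-, without Dnmt3b CI/CI embryo 3, and by median-of-ratios scaling or quantile normalization. Grm2 alone was higher by the adjusted p, at 0.79 ± 0.25 (SE), adjusted p = 0.0452. The count of 11 was 6 and 7 without embryo 2 or 3 labelled Dnmt3b-/-, where 3.27% and 2.9% of all tested genes were called lower, and 7 without Dnmt3b CI/CI embryo 3, where 3.56% were.

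Genes that act beside these receptors were followed in 6 lists, whose counts against Dnmt3b+/+ stand beside 3.38% of all tested genes called lower and 1.07% higher, and 16.4% lower and 9.41% higher by the adjusted p alone. Over the alternative fits the share of all tested genes called lower ran from 0.686% to 6.05%. Of the 2 GABA-B subunits, which form a G protein coupled receptor, Gabbr2 was at 0.365, 1.2 and 0.713 FPKM in Dnmt3b+/+, 0.420, 0.165 and 0.137 FPKM in embryos labelled Dnmt3b-/-, with 0.883, 0.905 and 0.852 FPKM in Dnmt3b CI/CI, and fell by 1.30 ± 0.39 (SE) on the log2 scale, adjusted p = 0.0406. Embryo 1 labelled Dnmt3b-/- overlapped the Dnmt3b+/+ embryos. The call was lost without Dnmt3b+/+ embryo 2 or 3, without embryo 2 or 3 labelled Dnmt3b-/-, without any single Dnmt3b CI/CI embryo, with no filter, by quantile normalization and with these 2 genotypes alone. Gabbr1, the more abundant, averaged 13.9 ± 2.86 FPKM in Dnmt3b+/+ and 9.57 ± 2.55 FPKM (SD, n = 3) where labelled Dnmt3b-/-. It did not pass, at -0.55 ± 0.19 (SE), adjusted p = 0.0642. The median of the pair was -0.93.

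Of 12 genes for the synthesis, release and uptake of GABA and glycine, 2 were called lower and 0 higher, 3 passed in each direction by the adjusted p, and the median was -0.83. The backgrounds were 3.38% called lower, and 16.4% lower and 9.41% higher by the adjusted p. The count of 2 was 1 without Dnmt3b+/+ embryo 2, 4 without Dnmt3b+/+ embryo 3, 6 without embryo 1 labelled Dnmt3b-/-, 1 by quantile normalization and 0 with a pseudocount of 1 FPKM. Among the called genes, the GABA transporter Slc6a13 was at 1.03, 1.4 and 1.33 FPKM against 0.414, 0.462 and 0.178 FPKM in embryos labelled Dnmt3b-/-, and fell by 1.63 ± 0.25 (SE) on the log2 scale, adjusted p = 0.00343. The glutamate decarboxylase Gad2 passed the adjusted p alone, at -0.87 ± 0.19 (SE), adjusted p = 0.0130. Higher by the adjusted p were Gldc, of the glycine cleavage system, and the serine hydroxymethyltransferases Shmt1 and Shmt2, the last the highest gene of the list at 15.1, 13.9 and 15.4 FPKM against 17.2, 19.5 and 17.5 FPKM, at 0.28 ± 0.07 (SE), adjusted p = 0.0184 on the log2 scale.

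Of 9 genes for the release and uptake of glutamate, 1 was called lower (background 3.38%), the transporter Slc1a1, at -1.14 ± 0.21 (SE), adjusted p = 0.00711. The count was 0 without Dnmt3b+/+ embryo 2, by quantile normalization, with a filter of 1 FPKM and with a pseudocount of 1 FPKM, and 2 without Dnmt3b+/+ embryo 1 or embryo 1 labelled Dnmt3b-/-. By the adjusted p 3 were lower and 1 higher (16.4% and 9.41% of all tested genes), the latter being glutamine synthetase Glul, the highest of the list, at 21.1, 20.4 and 22.3 FPKM against 23.6, 28.1 and 26.1 FPKM, and the median was -0.61. Of 4 chloride transporters, which set the direction of the GABA and glycine current, limma and voom called 0, and 1 passed in each direction at an unadjusted p under 0.05. The exporter Slc12a5 passed the adjusted p as lower, at -0.77 ± 0.21 (SE), adjusted p = 0.0312, and Slc12a7 as higher, at 0.41 ± 0.07 (SE), adjusted p = 0.00445. The importer Slc12a2, the highest of them, was at 7.58, 6.68 and 7.4 FPKM against 7.58, 7.41 and 7.94 FPKM, and the median was 0.01.

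Of 13 genes that anchor or traffic inhibitory receptors, 2 were called lower, Shisa7 and Slitrk3, 5 were lower and 1 higher by the adjusted p, and the median was -0.34. The backgrounds were again 3.38%, 16.4% and 9.41%. The count of 2 was 1 without Dnmt3b+/+ embryo 2 or 3, without embryo 2 or 3 labelled Dnmt3b-/-, with no filter and with these 2 genotypes alone, and it ran from 0 to 3 over all alternatives. Gephyrin, Gphn, the scaffold under glycine and GABA-A receptors, was at 3.36, 3.76 and 3.54 FPKM against 3.21, 3.13 and 3.2 FPKM and did not pass, at -0.15 ± 0.06 (SE), adjusted p = 0.110. The highest gene was Gabarap, at 32.2, 37 and 35.4 FPKM in Dnmt3b+/+. Of 27 auxiliary and anchoring genes of glutamate receptors, 3 were called lower, Cacng2, Shisa9 and Shank1, 10 were lower and 1 higher by the adjusted p, and the median was -0.57, with the same backgrounds. The count of 3 was 1 without Dnmt3b+/+ embryo 2 or 3, without embryo 2 or 3 labelled Dnmt3b-/- and with these 2 genotypes alone. It was 5 without Dnmt3b+/+ embryo 1 or embryo 1 labelled Dnmt3b-/-, with a pseudocount of 0.01 FPKM and on reads with voom, and no alternative gave fewer than 1 or more than 5. Cacng2, or stargazin, which brings AMPA receptors to the surface, was at 0.817, 2.17 and 1.19 FPKM against 0.947, 0.248 and 0.295 FPKM, and fell by 1.41 ± 0.44 (SE) on the log2 scale, adjusted p = 0.0479. The highest gene was Cnih2, at 26.1, 44 and 29.1 FPKM in Dnmt3b+/+ and 28.9, 18.7 and 17.1 FPKM in the embryos labelled Dnmt3b-/-, which did not pass. In Dnmt3b CI/CI against Dnmt3b+/+, limma and voom called 0 genes of these lists in either direction, and 0 had an unadjusted p under 0.05 by limma. By voom, 1 lower and 1 higher of the genes for GABA and glycine synthesis, release and uptake and 1 lower of those for glutamate release and uptake did.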

How the data were processed

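One RNA-seq library per embryo was compared over 3 genotypes with 3 embryos each, grouped by the sample labels. The authors aligned trimmed paired reads with STAR to mm10, kept reads of high mapping quality, quantified genes in SeqMonk and deposited FPKM values per gene. The deposited table has no zeros: a gene without reads holds a value worth 0.9 reads. For 34194 genes (99.9%) ratios of values among embryos gave back whole reads, and the implied lengths matched GENCODE M21 for 91.7%. The row without a gene identifier was left out.

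Genes at 0.1 FPKM or more in at least 3 of 9 embryos (19397) entered limma 3.58.1 (R 4.3.3) as log2(FPKM + 0.1), with a trend, all 9 embryos and Benjamini-Hochberg adjustment; such folds understate changes of low genes. Calls needed an adjusted p under 0.05 and 2-fold. Exact permutation of 3 against 3 cannot go below p = 0.1 and was not used. Both steps were tested on simulated data: most genes with a planted change were called, and a few without one were called too. Whether embryos of a genotype share a litter is not stated, so p-values measure the spread between these embryos.

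Receptor genes and lists were chosen with earlier results of these data known. Named in full are genes called in any comparison, the 2 highest of each class, and a list of developmental subunits; others are given by counts. Some of these genes are not reported here by name or plotted, and stay in the counts and sums. Alternatives were pseudocounts, filters, scalings, fits on 2 genotypes, without trend, with a replicate block, on reads with voom, and without each embryo. Positions and overlaps are from GENCODE M21, promoter windows from RefSeq. The strandedness is not given in the sources used here. Bisulfite libraries and lymphomas were not analysed here. Tables were handled with pandas.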

Additional observations from a re-analysis of the deposited data

How the results depend on the processing

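For the embryos labelled Dnmt3b-/- against Dnmt3b+/+, the count of 12 lower receptor genes was 20 with a pseudocount of 0.01 FPKM, 0 with 1 FPKM, 4 with a filter of 1 FPKM (10 receptor genes left) and 19 on reads with limma voom. Leaving out single embryos gave 4 to 18. Against Dnmt3b CI/CI, the count of 11 was 0 with a pseudocount of 1 FPKM, 3 with the filter of 1 FPKM, and 6 to 15 without single embryos. Quantile normalization called 1 gene higher there (Grm2), against 0. A larger pseudocount shrinks differences of low genes, and the filter tests fewer of them; the cause of the other changes was not tested. No called receptor gene changed direction in any alternative, and Dnmt3b CI/CI against Dnmt3b+/+ stayed at 0 calls in all of them. Over all genes, 208 higher and 655 lower calls against Dnmt3b+/+ became 276 and 407 by quantile normalization, and 213 and 838 against Dnmt3b CI/CI became 313 and 517, where the median log2 difference moved from -0.08 to 0.03. With that scaling, 8 receptor genes were called lower against Dnmt3b+/+ and 8 against Dnmt3b CI/CI.

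The ratio of summed FPKM to Dnmt3b+/+ without single embryos ran from 0.555 to 0.671 for GABA-A, 0.420 to 0.573 for AMPA, 0.538 to 0.661 for kainate, 0.315 to 0.489 for NMDA, 0.411 to 0.614 for delta, 0.644 to 0.985 for metabotropic and 0.719 to 1.12 for glycine genes, the last on both sides of 1. For all 50 genes it ran from 0.519 to 0.667.

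No pairing by embryo number was seen: deviations of same-numbered embryos correlated at -0.0866 on average, and those of other pairs at 0.0478. Single pairs ran from -0.34 to 0.33, so these averages cannot decide whether embryos were paired. A replicate block gave 9 lower receptor genes against Dnmt3b+/+ and 10 against Dnmt3b CI/CI. Calls lost with the block included Grin1 and Grin2d against Dnmt3b+/+ and Grm3 against Dnmt3b CI/CI; the block left 0 GABA-B, 1 inhibitory anchoring and 1 glutamate auxiliary gene called lower against Dnmt3b+/+. Of the 11 members under the filter, Grin2a and Gabrg3 passed the adjusted p with no filter, and 0 were called.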
